A study of Mus musculus with 16 samples.

Results

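The regions described here are 2 windows of mouse chromosome 4, chr4:110500000-115000000 and chr4:120500000-123000000 on the build mm8, in which the signal of tumour line DNA differed by strain of origin. All array probes placed inside them were taken, whatever their values: 319 probes in the first window and 177 in the second, or 496 of the 235402 probes that are not controls. The windows themselves were picked because strain differences had been seen there on these same arrays. Every strain level and count below is therefore a description, with no test, and the shares given for the rest of the genome are there for scale only.

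Genomic DNA from 16 cultured mouse tumour lines was measured by array comparative genomic hybridisation, in which DNA of a line and DNA of a common reference compete for the same probes. Line DNA was labelled red, with Cy5. The reference, mouse genomic DNA sold by Merck and of a strain not given in the sources used here, was labelled green, with Cy3, on all arrays. A log2 ratio of 0 thus means the same relative dose as in the reference, and a positive value means more in the line. The labels give Balb/C as the background of 3 lines (CT26, from colon, 4T1, from breast, and Renca, renal), DBA/2 as that of 1 line (P815, from mast cells) and C57BI6 as that of 12 arrays. The C57BI6 arrays are MC38 (colorectal), LL2 (lung), the melanoma stocks B16F0 ECAC, B16F0 ATCC, B16F10 NCI and B16F10 ATCC, Hepa1-6 (liver), PAN02 (pancreas), TRAMPC1 and TRAMPC2 (prostate), EL4 (blood) and ID8 (ovary). The labels give the sex as male for both TRAMPC lines and as female for the rest. The 4 B16 arrays and the 2 TRAMPC arrays were each averaged, which leaves 8 C57BI6 families as the units of spread. Each line was hybridised once, so the spread between lines of a strain holds line differences and array error together. All lines are established tumour lines, so a loss or gain made in a tumour and one carried by its strain are read in the same ratio, and DBA/2 is known here from P815 alone.

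The first window was named for the Skint genes. These genes form a tandem family of the immunoglobulin superfamily, expressed in mouse skin and thymus. Skint1, its best known member, is needed in the mouse for the selection of the gamma delta T cells that live in the epidermis. Tandem gene families of this kind are places where inbred strains often differ in copy number, because similar neighbouring copies can recombine with each other. No gene is given for any probe in the files, so the name could not be checked by position. In the gene table at hand, which is on a later build and was used for the order of neighbours only, 11 Skint genes follow each other on chromosome 4 between Slc5a9 and Trabd2b, with 0 other protein-coding genes among them. The stretches below are therefore called loci A to H by position.

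LL2 and EL4 stood apart from the other C57BI6 lines inside the first window, and this bears on every C57BI6 value there. In LL2, 30 of the 319 first-window probes gave a red signal that was not well above background, and in EL4 22 did. In each of the other 10 C57BI6 arrays this number was between 0 and 2. Of all autosomal probes, 0.0884% in LL2 and 0.0906% in EL4 were undetected, against 0.0109% to 0.0548% in the other 10. The main counts, the stretches and the differences at the first-window loci are given with and without these 2 lines. The arrays were also scanned in 2 batches. The first held CT26, 4T1, Renca, B16F10 NCI, Hepa1-6 and ID8, and the second held the other 10, including P815, LL2 and EL4. Within 5 Mb of the windows and between them, the median log2 ratio of the 1876 flanking probes ran from -0.31 in Renca to 0.25 in EL4, so no line's flanking median was further than 0.31 from the reference.

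The limits of the windows lay in quiet sequence. Over the 4 probes just inside the windows' ends, the log2 ratio ran from -0.68 to 0.15 in Balb/C, from -0.25 to 0.51 in P815 and from -0.43 to 0.18 in C57BI6. Over the 4 probes just outside, it ran from -0.52 to 0.58 in Balb/C, from -0.35 to 0.05 in P815 and from -0.42 to 0.44 in C57BI6. None of these 8 probes differed by 1 or more between strains.

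A probe was called lower in a strain where the strain's mean lay at least 1 below the mean of the C57BI6 families on the log2 scale, with no overlap between lines and families. It was called lower in the reference where the C57BI6 families averaged at least 1 above the reference with every family above 0. In both windows together, 89 of 495 probes with values (18%) were called lower in Balb/C, where 1.02% of autosomal probes were called by the same rule. In P815 84 probes (17%) were called lower, beside 4.27% of autosomal probes. In the reference 75 probes (15.2%) were called lower, beside 1.27% of autosomal probes. These shares cannot be read as a result about the windows, since the windows were chosen on this contrast. The opposite call was rare: 0 probes were higher in Balb/C (0.123% of autosomal probes), 2 in P815 (0.586%) and 2 in the reference (0.225%). Without LL2 and EL4 the counts of lower probes were 110 in Balb/C, 106 in P815 and 97 in the reference. Fewer families make the rules easier to meet at any probe, and no autosomal share was computed for these counts.

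The same probes were mostly low in all 3 sources of DNA. Of the 106 probes lower in any of them, 65 were lower in Balb/C, P815 and the reference together, 51 of them in the first window and 14 in the second. A further 14 were lower in Balb/C alone, 15 in P815 alone and 8 in Balb/C and the reference. For scale, 4.27% of autosomal probes and 3.63% of flanking probes were called lower in P815, with or without the other sources. The 15 probes lower in P815 alone, 4 of them at locus G, cannot be set apart from that background by their number. No probe was lower in the reference alone. The 67 probes shared by Balb/C and P815 were 75.3% of the Balb/C list and 79.8% of the P815 list. All 3 calls are set against the same C57BI6 families, so high C57BI6 values alone favour a shared call. The overlaps are therefore given as descriptions, and they were not counted over all autosomal probes.

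**Figure D1:**
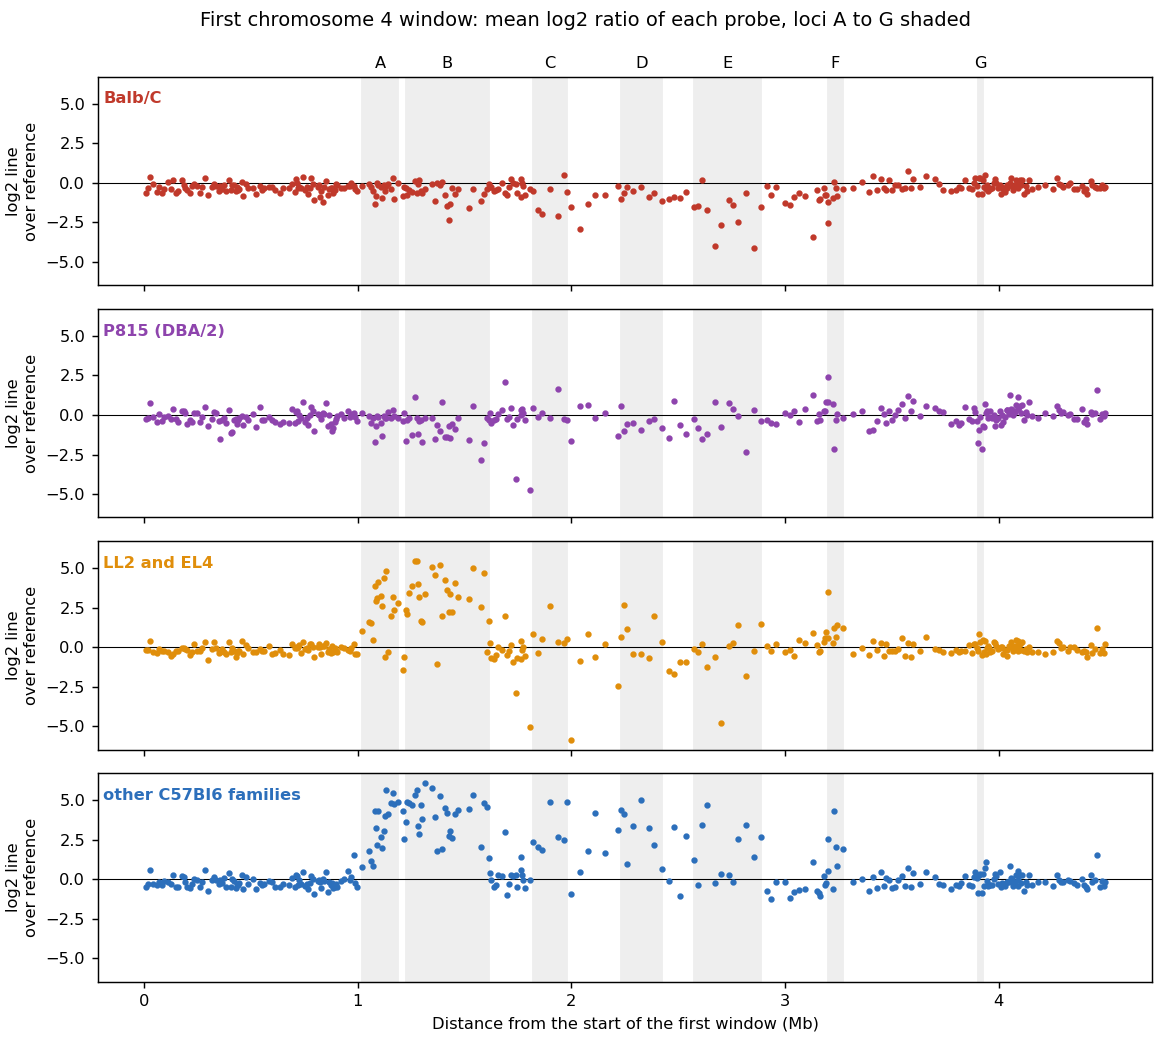
Mean log2 ratio of line over reference for each of the first-window probes (points), against distance from the start of the window in Mb, in Balb/C (mean of 3 lines), P815, LL2 and EL4 (mean of both) and the other 6 C57BI6 families (mean). Grey bands mark loci A to G. The 6 families lie mostly above 0 over loci A to F, LL2 and EL4 do so over A, B and F but not over much of C to E, and most points of Balb/C and P815 stay near or below 0.

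Signal detection gave a second reading of the same probes. A probe whose signal is not well above background gives only an upper limit for that source. Among the first-window probes, CT26 had 69 such probes, 4T1 61 and Renca 56, and P815 had 55. Of all autosomal probes, the share was 0.276% in CT26, 0.197% in 4T1, 0.181% in Renca and 0.491% in P815. In the second window each of these 4 lines had 9, while all 12 C57BI6 arrays had 0. The reference was not well above background on all 16 arrays at 38 first-window probes and at 2 second-window probes, against 125 of all 220668 autosomal probes. In the second window the lines of both other strains are thus apart from all C57BI6 lines, whereas in the first window LL2 and EL4 lie between the other C57BI6 lines and P815.

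**Figure D2:**
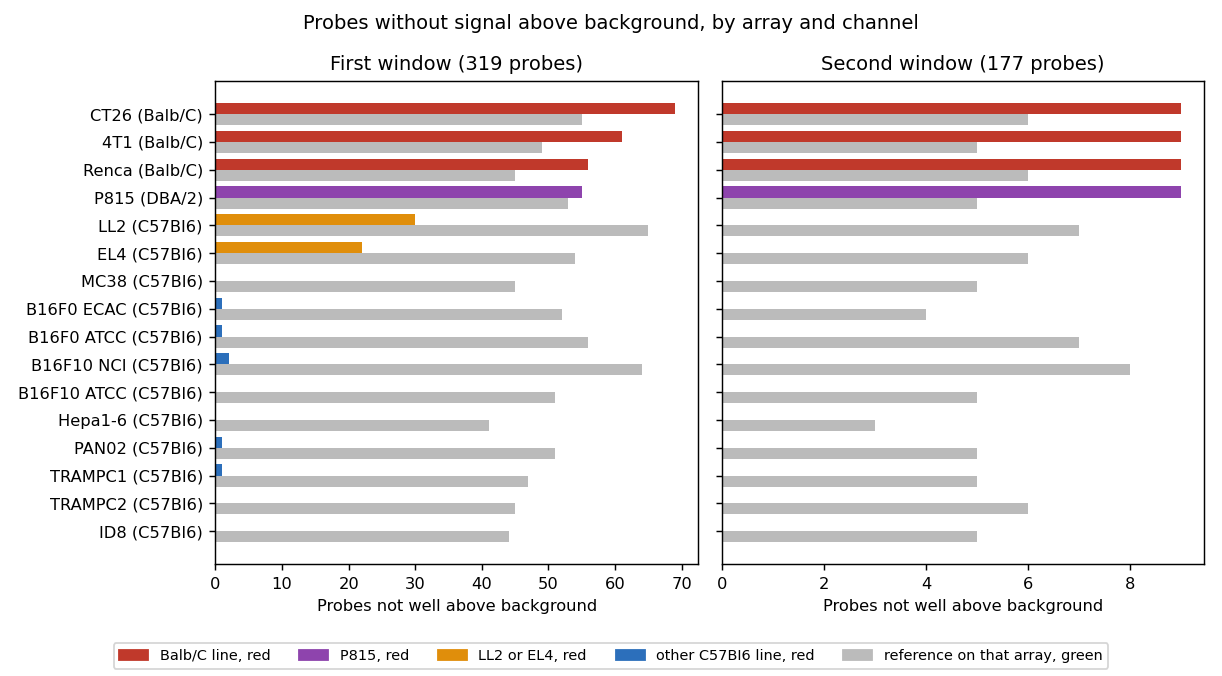
Number of probes not well above background on each array, in the red channel of the line (coloured bars) and in the green channel of the reference on the same array (grey bars), for the first window (left) and the second (right). Lines run from Balb/C at the top through P815, LL2 and EL4 to the other C57BI6 lines. The reference bars run from 41 to 65 in the first window and from 3 to 8 in the second. In the first window they are longest on the LL2 array, at 65, and the B16F10 NCI array, at 64. Of all autosomal probes, the reference was undetected at 0.276% on the LL2 array and 0.328% on the B16F10 NCI array. On the other arrays this share ran from 0.087% to 0.198%.

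Probes were then counted that were both called lower in a source and not well above background there, with the line detected on at least 10 of 12 C57BI6 arrays. There were 52 such probes in Balb/C, 43 in the first window and 9 in the second, beside 0.138% of autosomal probes. P815 also had 52, again 43 and 9, beside 0.437% of autosomal probes. The reference had 39, in 34 and 5, beside 0.0617% of autosomal probes. Of the 62 probes counted in any source, 34 were counted in all 3. Balb/C and P815 shared 42, which is 80.8% of each list. All these calls rest on the same C57BI6 arrays, so the overlaps are descriptions as well. Without LL2 and EL4 the counts were 61 in Balb/C, 62 in P815 and 49 in the reference, for which no autosomal share was computed.

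Runs of neighbouring called probes, with at least 3 called and at most 1 uncalled probe between them, gave 7 stretches lower in Balb/C, 8 in P815 and 6 in the reference. Overlapping stretches of the 3 sources were merged into 8 loci, A to G in the first window and H in the second. The loci hold the great majority of the calls: outside them lay 7 first-window probes lower in Balb/C, 5 in P815 and 4 in the reference, and in the second window 2 in P815. Outside the loci the first window averaged -0.34 ± 0.08 in the 3 Balb/C lines, -0.10 in P815 and -0.07 ± 0.18 in the 8 C57BI6 families (SD). The second window outside locus H averaged -0.24 ± 0.11 in Balb/C, -0.01 in P815 and -0.17 ± 0.12 in C57BI6. Outside the loci, then, no strain mean was further than 0.34 from the reference.

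**Figure D3:**
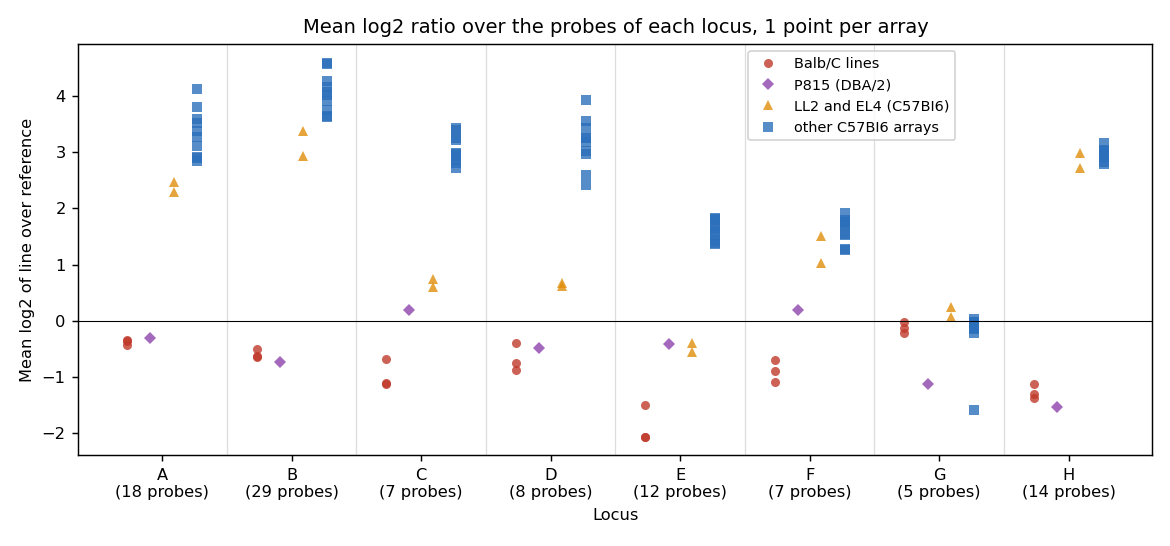
Mean log2 ratio of line over reference across the probes of each locus, 1 point per array: Balb/C lines, P815, LL2 and EL4, and the other C57BI6 arrays, from left to right within a locus. The gap between Balb/C and C57BI6 is widest at loci B and H. LL2 and EL4 sit apart from the other C57BI6 arrays at C, D and E, and at G the lowest point is B16F10 ATCC.

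Locus B, chr4:111724836-112114804, was the longest run in the first window, with 29 probes over 390 kb. Its mean log2 ratio was -0.64 in CT26, -0.51 in 4T1 and -0.62 in Renca. P815 gave -0.74. In the C57BI6 families it was lowest in LL2 at 2.94, had a median of 3.90 and was highest in MC38 at 4.58. The groups did not overlap, and every C57BI6 family lay far above the reference. In Balb/C and P815 no side of the reference can be read from these means, since 20 of the 29 probes were undetected in the 3 Balb/C lines and in the reference alike, and 21 in P815 and the reference. Balb/C averaged -0.59 ± 0.07 (SD, n = 3) and C57BI6 3.82 ± 0.51 (n = 8), a difference of -4.41. Of the 29 probes, 27 were called lower in Balb/C, in P815 and in the reference alike. Because so many of these probes had no signal above background, the ratio is better read as a limit. Over the 21 probes both called lower and undetected in Balb/C, its red signal was at least 10.9-fold lower than in C57BI6. By the same rule P815 was at least 9.87-fold lower than C57BI6 over 23 probes, and the reference at least 8.04-fold lower over 20. Undetected probes in all numbered 22 in the 3 Balb/C lines, 24 in P815 and 21 in the reference (on at least 12 arrays). The probes used were picked by the contrast itself, so their limits describe them and not the whole locus. These limits set the C57BI6 mean against the dimmest signal still above background on each array, or the probe's own signal where that was higher. At the 4 probes of locus B detected in every source the contrast was smaller: -0.09 ± 0.07 in Balb/C, -0.15 in P815 and 1.75 ± 0.47 in C57BI6.

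Locus A, chr4:111521481-111690753, lay just before it and held 18 probes over 169 kb. Balb/C gave -0.36 in CT26, -0.43 in 4T1 and -0.34 in Renca, and P815 gave -0.30. The C57BI6 families ran from 2.29 in LL2 through a median of 3.12 to 4.13 in MC38. All Balb/C lines and P815 were below every C57BI6 family. The difference of Balb/C from C57BI6 was -3.48 and that of P815 was -3.40. Probes both called lower and undetected put Balb/C at least 8.80-fold lower than C57BI6 over 7 probes. By this rule P815 was at least 8.08-fold lower over 9 and the reference at least 6.22-fold lower over 8. Undetected probes in all numbered 8 in Balb/C, 11 in P815 and 10 in the reference. Loci A and B were split by 2 probes at which LL2 and EL4 were low. Without these 2 lines, A and B joined in all 3 sources into 1 stretch, chr4:111551341-112114804, with 48 of 48 probes called in Balb/C and 47 of 48 in P815 and in the reference. The differences from C57BI6 were then -3.71 for Balb/C and -3.64 for P815 at locus A, and -4.63 for Balb/C and -4.77 for P815 at locus B. The limits were then 11.2-fold in Balb/C, 9.68-fold in P815 and 8.11-fold in the reference at A, and 12.3-fold in Balb/C, 11.1-fold in P815 and 9.72-fold in the reference at B.

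On the right of this joint block, the last low probe ended at 112114804 and the next probe, which was not called in any source, began at 112119736, 4.93 kb further on. On the left, Balb/C was first called at 111521481, with an uncalled neighbour 22.2 kb before it, and P815 and the reference were first called at 111551341, 29.8 kb after their uncalled neighbour, so the left border is less closely placed than the right. The left border of Balb/C was 1 probe further out than that of the other 2 sources, a difference that was lost without LL2 and EL4.

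Loci C, D and E followed over the next part of the window, at wider probe spacing. Locus C, chr4:112322107-112478556, held 7 probes at 22.4 kb per probe, locus D, chr4:112734122-112926464, 8 probes at 24.0 kb per probe and locus E, chr4:113073332-113386081, 12 probes at 26.1 kb per probe, against 13.4 kb per probe in locus B. At locus C the mean log2 ratio was -0.68 in CT26, -1.11 in 4T1 and -1.13 in Renca, and 0.18 in P815. LL2 gave 0.59 and EL4 0.75, while the other 6 C57BI6 families averaged 3.03 ± 0.21. By these means P815 stood near the reference at this locus and the Balb/C lines below it. The means hold probes without signal, however, so they do not fix the level of either strain against the reference. Of the 7 probes, 3 were undetected in P815 and 4 in all Balb/C lines, and in each case 2 of these were undetected in the reference too. No probe of locus C was detected in every source.

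Loci C and D merge stretches whose borders differed by source. In C the Balb/C stretch ended at 112438810, and those of P815 and the reference at 112478556. In D Balb/C and the reference were low over 3 probes, chr4:112734122-112762286, and P815 over chr4:112747739-112926464 with 6 called. Of the 8 probes of D, 5 were called lower in Balb/C, 6 in P815 and 4 in the reference. At locus D the ratio was -0.75 in CT26, -0.40 in 4T1, -0.88 in Renca and -0.49 in P815. LL2 gave 0.61 and EL4 0.68, against 3.0 ± 0.41 in the other 6 families. Both C57BI6 lines were thus closer to P815 and Balb/C than to the rest of their own strain. Over all 8 families the difference from C57BI6 was -3.09 for Balb/C and -2.91 for P815. Without LL2 and EL4 it was -3.68 for Balb/C and -3.50 for P815, and at locus C -4.01 for Balb/C and -2.85 for P815. At locus C 4 of 7 probes were not well above background in any Balb/C line, and at D 4 of 8. Probes that were also called lower there put Balb/C at least 6.84-fold lower than C57BI6 over 3 probes at C and at least 7.29-fold lower over 2 at D. With LL2 and EL4 left out these limits were 9.79-fold at C and 11.4-fold at D.

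Locus E showed the widest separation between Balb/C and P815. The ratio was -1.51 in CT26, -2.06 in 4T1 and -2.06 in Renca, but -0.42 in P815. LL2 gave -0.55 and EL4 -0.41, while the other 6 families averaged 1.61 ± 0.19. The locus mean of P815 lay inside the range of the 8 C57BI6 families, between LL2 and EL4. Of the 12 probes, 9 were called lower in Balb/C, 4 in P815 and 2 in the reference, and 7 of the 9 were lower in Balb/C alone. Without LL2 and EL4, 12 were called in Balb/C, 8 in P815 and 7 in the reference, and the difference from C57BI6 was -3.49 for Balb/C and -2.03 for P815. At the 3 probes of this locus detected in every source, Balb/C gave -1.34 ± 0.08, P815 0.11 and C57BI6 -0.06 ± 0.11, so these probes were low in Balb/C with P815, C57BI6 and the reference near one level.

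The stretches of at least 3 neighbouring probes that were both lower and undetected were shorter than the loci. In Balb/C there were 6: 5 probes at chr4:111634766-111690753, 12 at chr4:111724836-111862804, 9 at chr4:111910911-112091131, 3 at chr4:112364682-112438810, 3 at chr4:113279066-113386081 and 7 in the second window. P815 also had 6: 4 probes at chr4:111579573-111611803, 5 at chr4:111634766-111690753, 23 at chr4:111724836-112091131, 3 at chr4:112400294-112478556, 3 at chr4:113279066-113386081 and 7 in the second window. The reference had 4: 5 probes at chr4:111634766-111690753, 15 at chr4:111724836-111917206, 5 at chr4:111955418-112091131 and 4 in the second window. All 3 sources share the stretch at the end of locus A and most of locus B, and the undetected stretch at the end of locus E was shared by Balb/C and P815 while the reference had none there. Without LL2 and EL4 the undetected stretches numbered 5 in Balb/C, 6 in P815 and 3 in the reference.

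Leaving out LL2 and EL4 redrew the map between loci C and E. In Balb/C the 3 loci then joined into 1 stretch, chr4:112322107-113386081, with 34 of its 37 probes called over 1064 kb. P815 kept separate stretches there: chr4:112304580-112478556 with 8 called probes, chr4:112577760-113200796 with 19 and chr4:113279066-113386081 with 4. In the reference they were chr4:112322107-112478556 with 7, chr4:112577760-112885265 with 10, chr4:112981682-113134868 with 5 and chr4:113279066-113386081 with 4. The number of stretches lower in Balb/C was 4 without these 2 lines and 7 with all families.

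Locus F, chr4:113700934-113769944, held 7 probes. Balb/C gave -0.70 in CT26, -1.09 in 4T1 and -0.89 in Renca, and P815 gave 0.19. The C57BI6 families ran from 1.04 in EL4 through a median of 1.54 to 1.92 in PAN02. Balb/C and P815 did not overlap with C57BI6, and P815 lay nearer to the reference than Balb/C did. With LL2 and EL4 left out, the difference from C57BI6 was -2.56 for Balb/C and -1.48 for P815, against -2.46 and -1.38 with them. The probes within the locus differed widely: the difference of Balb/C from C57BI6 ran from -5.32 to -0.60 and that of P815 from -5.68 to 1.04. The borders were called differently as well. Balb/C was low from 113700934, whereas P815 and the reference were low from 113730301.

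Locus G, chr4:114403066-114425533, was low in P815 and not in Balb/C. P815 gave -1.13 over 5 probes, all detected in every source, against -0.07 ± 0.22 in the C57BI6 families, with 4 of the 5 probes called. Of flanking probes, 3.63% were called lower in P815 by the same rule. Balb/C averaged -0.12 ± 0.10 and overlapped with C57BI6. Without LL2 and EL4 the difference of P815 from C57BI6 was -0.98 and 2 of the 5 probes were called, too few for a stretch, against -1.05 and 4 with them. Among the single C57BI6 arrays, however, B16F10 ATCC gave -1.59, below P815, while B16F0 ECAC gave -0.08, B16F0 ATCC -0.15 and B16F10 NCI -0.13. This low value is hidden in the B16 family mean of -0.49, and with arrays taken singly P815 was not outside the C57BI6 range at this locus. Across all autosomes, 0.669% of probes in B16F10 ATCC lay at least 1.5 below the median of the other C57BI6 families, the highest share among the 12 arrays.

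Locus H, chr4:121246442-121858499, was the only stretch in the second window, and all 14 of its probes were called lower in Balb/C, P815 and the reference. The mean log2 ratio was -1.12 in CT26, -1.31 in 4T1 and -1.37 in Renca, and -1.53 in P815. These means hold probes without signal: 5 of the 14 were undetected in Balb/C and the reference alike, and 5 in P815 and the reference. The C57BI6 families lay between 2.72 in LL2 and 3.17 in MC38, with a median of 2.96. The groups were far apart, and the C57BI6 spread of 0.15 (SD, n = 8) was the smallest at any of the 8 loci. LL2 and EL4, at 2.72 and 3.0, were not set apart here. The differences from C57BI6 were -4.20 for Balb/C and -4.47 for P815.

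The undetected probes of locus H put Balb/C at least 15.3-fold lower than C57BI6 and P815 at least 13.0-fold lower, over 9 probes each. The reference was at least 8.23-fold lower than C57BI6 over 5 probes. At the 5 probes detected in every source, Balb/C gave -0.68 ± 0.12, P815 -0.80 and C57BI6 1.92 ± 0.12. The order Balb/C and P815 below the reference, and the reference below C57BI6, was thus present among probes with signal in all of them.

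Few probes cover locus H. It had 43.7 kb per probe, against 14.1 kb per probe over the whole second window. A gap of 227 kb, the widest in the window, lay inside the locus between its first probe and the next at 121473470. On the right, the last called probe ended at 121858499 and the next probe began at 122043654, 185 kb further on. On the left the uncalled neighbour was 23.6 kb away. The right border is therefore known to within 185 kb only, and whether the first probe belongs to the same block as the other 13 cannot be told from these probes. The undetected part was shorter: 7 neighbouring probes at chr4:121527786-121623413 in both Balb/C and P815, and 4 at chr4:121556068-121623413 in the reference.

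**Figure D4:**
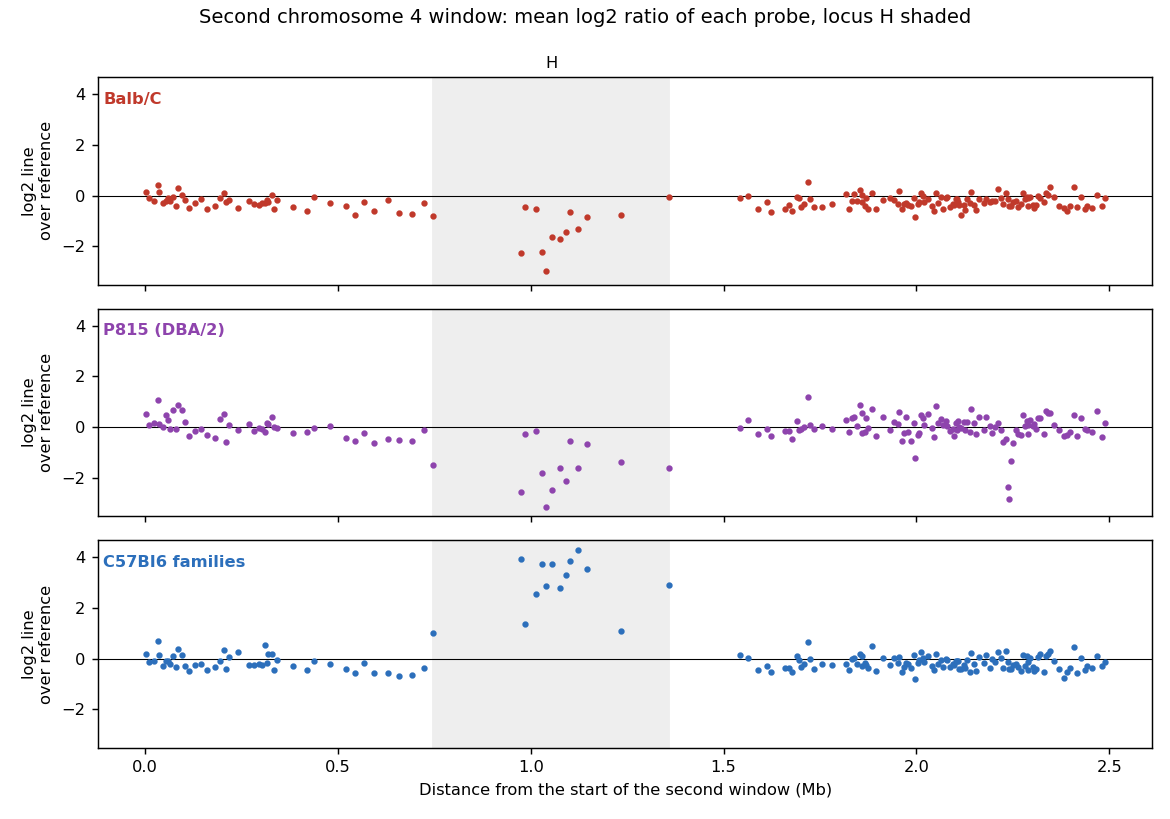
Mean log2 ratio of line over reference for each of the second-window probes (points), against distance from the start of the window in Mb, in Balb/C (mean of 3 lines), P815 and the 8 C57BI6 families (mean). The grey band marks locus H, where all 14 probes are above 0 in C57BI6 and below it in Balb/C and P815; the empty stretches within and after the band hold no probe.

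Scan batch does not separate Balb/C from every C57BI6 line. Within the first batch, which holds the 3 Balb/C lines with B16F10 NCI, Hepa1-6 and ID8, the difference of Balb/C from C57BI6 was -3.27 at locus A, -4.26 at B, -3.79 at C, -3.41 at D, -3.27 at E, -2.35 at F and -4.13 at H, with no overlap at any of these 7. At locus G it was -0.01 with overlap. No Balb/C line was in the second batch, and P815 was scanned there with 9 C57BI6 arrays.

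The position of the low signal in LL2 and EL4 was mapped in the same way, by a comparison chosen after their values were seen. In the first window 54 probes were at least 1 lower in the mean of LL2 and EL4 than in the other 6 C57BI6 families without overlap, and in the second window 0 were, beside 0.268% of autosomal probes. Over these 54 probes LL2 averaged 0.04 and EL4 0.17, while the other 6 families ran from 2.73 to 3.38. P815 averaged -0.50 and Balb/C -0.82 ± 0.10 (SD, n = 3). Averaged over the 54 probes, both lines thus lay near 0, but their level varied by stretch. A further 5 first-window probes, 1.01% of the members with values, were higher in LL2 and EL4, beside 0.0136% of autosomal probes.

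The low probes of LL2 and EL4 fell into 5 stretches. The longest, chr4:112304580-112864840, held 18 called probes over 560 kb, with means of -0.45 in LL2 and -0.47 in EL4, against 2.78 ± 0.23 in the other 6 families. P815 gave -0.46 and Balb/C -0.93 there. Neither a match nor an order of these low means can be read, since many of the 18 probes had no signal above background. LL2 was undetected at 13 of them, EL4, P815 and Balb/C at 9 each and the reference at 5. The next, chr4:112954937-113200796, held 7 called probes and averaged -1.30 in LL2 and -1.59 in EL4, against 2.24 ± 0.27 in the other families. The means of P815, at -0.79, and Balb/C, at -1.17, were higher in this stretch, but no order can be read from them. The probes were picked for low LL2 and EL4, and LL2 was undetected at 6 of the 7 and EL4 at 5. P815, Balb/C and the reference were undetected at 3 each. A stretch of 4 called probes followed at chr4:113279066-113386081, with 0.20 in LL2, 0.21 in EL4 and 2.52 ± 0.21 in the other families, and here P815, at -0.63, and Balb/C, at -2.20, were lower. Of the locus probes, LL2 and EL4 were lower at 7 of 7 in C, 5 of 8 in D and 8 of 12 in E. The other 2 stretches lay within and between loci A and B: chr4:111629720-111742790, with 10 called probes, gave 0.93 in LL2, 1.64 in EL4 and 4.47 ± 0.46 in the other families, and chr4:111797988-111813232, with 3, gave 2.43 in LL2, 1.98 in EL4 and 4.89 ± 0.43 in the others. P815 and Balb/C lay below both lines in these 2 stretches, at -0.09 and -0.40 in the first and -0.73 and -0.52 in the second. At locus A 6 probes of 18 were lower in LL2 and EL4, at B 9 of 29 and at F 2 of 7, and at G and H none was.

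The 2 lines were low at much the same probes. Of the undetected first-window probes, 21 were undetected in both, which is 70% of the LL2 list and 95.5% of the EL4 list, and all 21 were among the 54 lower probes. Of the 54, P815 was not well above background at 33, all 3 Balb/C lines at 31 and the reference on at least 12 arrays at 27. At 14 of them the reference was well above background on every array. Autosome-wide 591 probes met the same rule, and the windows held 9.14% of them. LL2 and EL4 were both scanned in the second batch, together with MC38, B16F0 ECAC, B16F0 ATCC, B16F10 ATCC, PAN02, TRAMPC1 and TRAMPC2, which had 0 or 1 undetected probe in the first window. With the comparison kept to that batch, 55 probes were lower. Whether the low signal was carried by the mice the lines came from or arose in the lines was not tested.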

How the data were processed

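Each line's DNA was hybridised once against the common reference on a 2-colour array. Agilent Feature Extraction 10.7.3.1 produced the authors' spot intensity values, with background subtraction, detrending and a linear dye scaling, per the file headers. On every array at least 99.9% of spots other than controls had a deposited log10 ratio equal to that of their processed signals (tolerance 0.001 in log2). The deposited value table held the same ratio in log2 units, with a largest difference of 5.06e-05 and column medians from -0.04 to 0.05. The deposited flags, of 0 or 1, mark outlier spots and signals well above background. Probe positions are on mm8, per the file headers.

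Here, log2 of processed red over green was taken, control and outlier spots were left out, repeat spots were averaged and each array was centred on its autosomal median, without loess or quantile normalization. For limits on undetected probes, signals were set between arrays in the same way. Of 496 probes, 495 had values in every array. Precision is limited by how few arrays there are. The calls were tested on simulated data with planted stretches. The members, the loci and the size of a call were chosen with earlier results of these data known. Stretches of at least 3 called probes were named by position, single probes only as borders. Alternatives used normexp in limma 3.58.1 (offset 50) on median spot signals, since the files hold no mean spot signal, and the other settings listed with the closing section.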

Additional observations from a re-analysis of the deposited data

Results flagged for a closer look

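At 6 of the 8 loci the mean ratio was below 0 in every Balb/C line and above 0 in every C57BI6 family. The difference of Balb/C from C57BI6 was -3.48 at locus A, -4.41 at B, -3.42 at C, -3.09 at D, -2.46 at F and -4.20 at H on the log2 scale. The windows were chosen for this contrast, and the difference was not tested. The Balb/C side of 0 is not a property of loci A and B, where most probes of B and 8 of 18 at A were undetected in Balb/C and in the reference alike. Probes detected in every source gave Balb/C means of -0.29 at A and -0.09 at B, beside -0.34 outside the loci of that window. The limit reaches further: 4 of 8 probes at D, 5 of 14 at H, and 2 of 7 at C and at F, were also undetected in both. At C and D no probe was detected in every source, so the side of 0 could not be checked there. Such probes gave Balb/C means of -0.71 at F and -0.68 at H.

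At locus F, EL4 gave the lowest value of the 8 C57BI6 families, 1.04, and its gap to the next family was large beside the range of all 8. This check was made at 8 loci and drew attention to 1 line; chance alone does so in about 1 group in 20.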

How the results depend on the processing

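Normexp background correction, which adds an offset of 50, changed the counts most. Such an offset shrinks ratios of dim probes by construction, but the shrinkage was not confined to them. At locus G, whose 5 probes were detected in every source, the difference of P815 from C57BI6 went from -1.05 to -0.18. How much of the change in counts came from dim probes was not tested. Under normexp, lower probes numbered 20 in Balb/C, 7 in P815 and 6 in the reference, and 10, 4 and 1 were also undetected. Lower stretches then numbered 2 in Balb/C, 1 in P815 and 1 in the reference, and undetected stretches 2 in Balb/C, 0 in P815 and 0 in the reference. Probes lower in LL2 and EL4 numbered 6. The difference of Balb/C from C57BI6 kept its sign at A to F and H, from -0.58 at C to -1.16 at H, as did that of P815, from -0.09 at E to -0.80 at H, and C57BI6 over the reference ran from 0.01 at G to 0.75 at H. These are group means, and single lines did not all keep the order. At C, P815 gave -0.01, above LL2 at -0.16, EL4 at -0.37 and B16F10 NCI at -0.10. P815 was above the same lines at D and E, and below every C57BI6 array at A, B and H. With dim signals at the floor, 12 of 23 levels moved by more than the spread, all at A, B, F and H: at B the difference was -3.15 for Balb/C and -3.03 for P815. Lower stretches in P815 fell to 4 with dim signals set to the floor and to 5 with at least 5 probes in a stretch, where its undetected stretches fell to 3. Lower stretches in Balb/C numbered 4 in their own scan batch and 4 without LL2 and EL4, an alternative chosen after seeing the data, as neighbouring stretches joined. In all, 161 of 179 recomputed counts stayed within 1.5 times their value, and no locus level of 1 or more in size changed sign, while the C57BI6 level at locus G ran from -0.17 to 0.24. Leaving out 1 Balb/C line gave 88 to 92 lower probes in Balb/C. Apart from normexp, every setting kept the counts of lower and of undetected probes within 1.5 times. No paired analysis was possible because replicate numbers only name the lines and no test was run. Probe spacing limits the borders, and undetected signal limits the size of differences to bounds.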
